A study of Mus musculus with 24 samples.

Results

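The effect of partial nephrectomy on the transcriptome of mouse visceral adipose tissue was taken as the mean of the difference PNx minus Control and the difference PNx+NaKtide minus NaKtide, so that each transduction was compared with its own sham-operated mice. All 24 libraries of the series entered, 12 from mice with nephrectomy and 12 from sham-operated mice, and 26116 of the 54232 genes in the table, those whose total over all libraries exceeded 10 counts, were tested. C57BL6 mice aged 10 weeks received, intraperitoneally, a lentivirus in which the adiponectin promoter drives either GFP alone or NaKtide joined to GFP, a peptide made to block signalling from the Na,K-ATPase through the kinase Src. The 4 groups held 6 libraries each, and every group, the controls included, carried a lentivirus: Control (sham operation, GFP), NaKtide (sham operation, NaKtide), PNx (left kidney ligated in part, right kidney removed, GFP) and PNx+NaKtide (the same surgery, NaKtide). The adiponectin promoter is meant to limit the transgene to adipocytes, whereas the RNA was that of the whole tissue, in which fewer cells of a type and less RNA per cell cannot be told apart.

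Loss of kidney mass leads to the retention of uremic solutes and to oxidant stress, and visceral fat is known to answer such stress with altered adipokine secretion, lipolysis and inflammation. The Na,K-ATPase, besides pumping ions, is held to act as a receptor that binds Src and, when engaged by cardiotonic steroids or oxidants, starts a kinase cascade that raises oxidant production further. The genes of this cascade, of lipid storage and of the stress, immune and protein turnover pathways were therefore described beside the genes that stood highest by the test.

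The libraries held 679250 to 2979505 counts (median 1650582), so that a count of 0 in a library allowed up to 1.01 to 4.42 CPM (counts scaled to the library total; counting error only). Genes with exon bases shared with a gene of the opposite strand made up 31.1% of the tested genes and 34.7% of their exon bases but held 80% of the counts (70.2 to 86.5% by library). mt-Nd6, the single mitochondrial mRNA on the minus strand, had 403137 counts per kb against 5968 counts per kb for the 12 on the plus strand, so that a value under a gene's name may hold reads from the other strand, and the overlapping gene is named beside each value below. This doubt covers genes without an annotated overlap too, whose counts may not be of their own mRNA, which was not tested. No difference between the 12 nephrectomy and the 12 sham libraries passed the test in total counts, in genes detected at equal depth, in the share held by the 100 highest genes, in the share of opposite-strand genes or in the mitochondrial share (exact permutation test within transductions, two-sided, smallest p = 0.0643, BH-adjusted p = 0.321 over the 5 measures). Single libraries did stand apart. NaKtide replicate 6 had 7101 CPM summed over 14 skeletal muscle genes against 86.6 to 189 CPM in the other sham libraries. PNx replicate 6 had 7862 CPM summed over 20 adipocyte genes against 118 to 1304 CPM in the other nephrectomy libraries. PNx replicates 1, 2 and 3 were the highest library of all 24 at 27.3%, 43.7% and 15.3% of the genes with an unadjusted p under 0.05 in the direction of higher expression after nephrectomy, against 9.63%, 13.5% and 9.07% of all genes tested. These 3 libraries held 2979505, 2309056 and 2678556 counts, had the 3 lowest mitochondrial shares of all 24 (0.619%, 1.02% and 0.974%, against 1.13% or more elsewhere) and were among the 4 with the lowest share in the 100 highest genes (26.2%, 28.7% and 25.3%). Results are therefore also given without PNx replicates 1, 2 and 3, and without NaKtide replicate 6 and PNx replicate 6.

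No gene passed the test for the nephrectomy effect. edgeR's quasi-likelihood test called 0 of 26116 genes at a BH-adjusted p under 0.1 (0%), the smallest adjusted p being 0.229. At an unadjusted p under 0.05 stood 4554 genes (17.4%), of which 3515 (13.5% of all genes tested) were higher and 1039 (3.98%) lower after nephrectomy. The choice of test decided this count. DESeq2 called 3505 genes (3245 higher, 260 lower), limma's voom with library weights called 14356 (7105 higher, 7251 lower), and the exact permutation test, which assumes no distribution of the counts, called 0, with a smallest adjusted p of 0.441 and 2913 genes at an unadjusted p under 0.05. In no gene did all 12 nephrectomy libraries lie outside the range of the 12 sham libraries. The widest separation by that measure was 10 of 12 libraries.

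The 3515 genes on the higher side stood high in some nephrectomy libraries and among the sham libraries in the others. Their median log2 fold change was 1.77 over all 24 libraries, 2.22 in PNx minus Control and 1.13 in PNx+NaKtide minus NaKtide. Measured from the median of the sham libraries, the typical gene of this set was 2.27, 2.23 and 2.01 higher on the log2 scale in PNx replicates 1, 2 and 3, and 1.34, 1.27 and 1.26 higher in PNx+NaKtide replicates 2, 3 and 4. In the 6 remaining nephrectomy libraries the same median lay between -0.22 and 0. The summed level of 15 sperm markers was high in the same 6 libraries: PNx replicates 1, 2 and 3 had 2122, 1879 and 2516 CPM and PNx+NaKtide replicates 2, 3 and 4 had 1369, 1661 and 1706 CPM. It was 371 to 715 CPM in the other nephrectomy libraries and 441 to 1425 CPM in the sham libraries. None of the 15 sperm markers stood at an unadjusted p under 0.05, 13 were above 0, and their median log2 fold change was 0.82, or -0.25 without PNx replicates 1, 2 and 3. The part of these markers and of the library measures above in the 3515 genes was not tested. Without PNx replicates 1, 2 and 3, 200 of the 3515 (5.69%) kept an unadjusted p under 0.05 in the same direction, and 920 of 23673 genes stood at that threshold in all, 374 of them higher. Without NaKtide replicate 6 and PNx replicate 6, 3276 (93.2%) did. The 1039 genes on the lower side were less dependent on those 3 libraries, since 337 (32.4%) kept their direction and threshold without them and 880 (84.7%) without the pair numbered 6. These shares are a description of the same data, and the difference between both sides was not tested. Measured from the sham median (log2), the typical gene of the lower side stood at 0.10, 0.38, 0.28 and 0.30 in Control replicates 1 to 4. It stood at -0.11 and -0.16 in replicates 5 and 6 and between -0.23 and 0 in NaKtide. In the nephrectomy libraries it lay between -1.49 and -0.23. Pidd1, Gprin1, Nrsn1, Teddm2, Il17d, Myd88, Ikbkg and Srxn1 were lower in Control replicates 5 and 6 than in replicates 1 to 4. Abcb5, Plin5, Jund and Lrp2 were not.

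**Figure D1:**
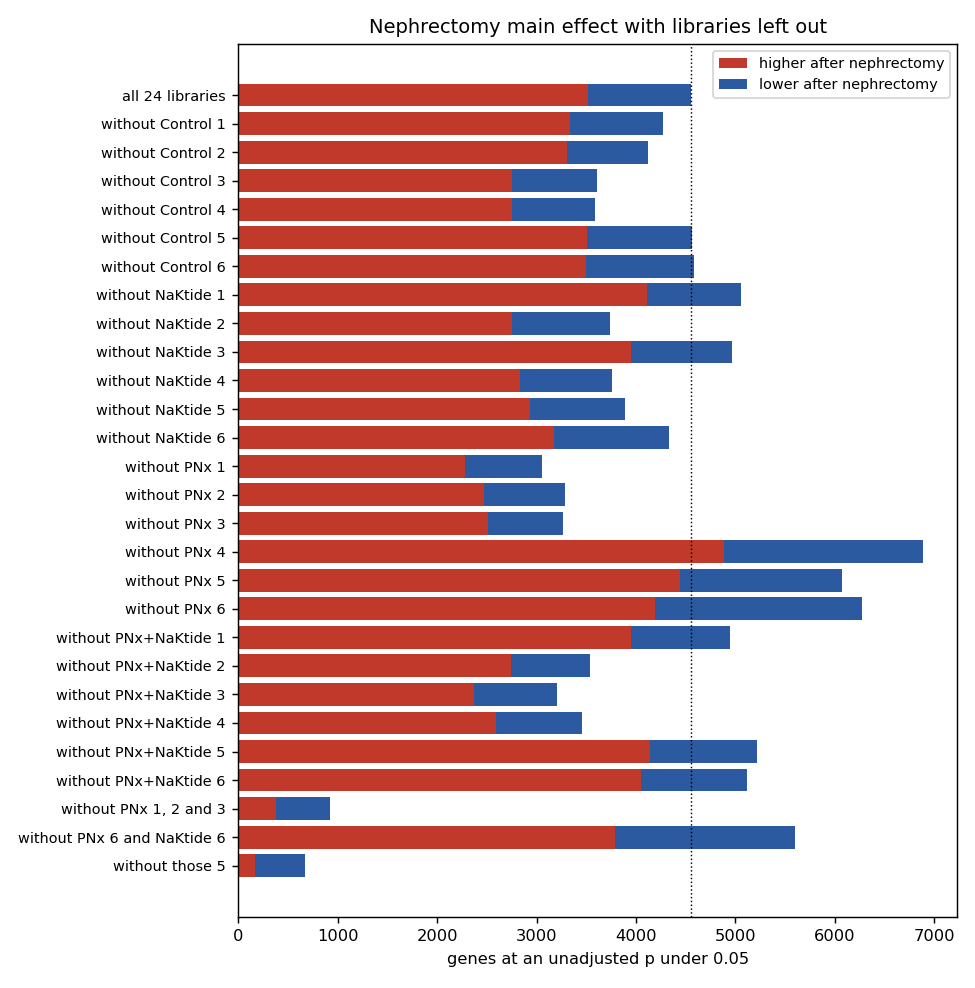
Horizontal bars give the number of genes at an unadjusted p under 0.05 for the nephrectomy effect, split into higher (red) and lower (blue), with all 24 libraries, with each library left out and with sets of libraries left out. The dotted line marks the 4554 genes of all libraries, and the bars range from 3057 without PNx 1 to 6890 without PNx 4, with 920 without PNx 1, 2 and 3 and 673 without all 5 libraries of the last rows.

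The genes on the lower side with the smallest p were Pidd1, Gprin1 and Nrsn1, none of which passed adjustment (BH-adjusted p = 0.229, as for the other 21 genes named from both ends of the list). None of these 3 shares exon bases with an opposite-strand gene. Pidd1 encodes the scaffold of the PIDDosome, which activates caspase-2 after DNA damage or centrosome amplification (ENSMUSG00000025507, chromosome 7, 141438113 to 141444025, GRCm38, minus strand). It had a lowest, median and highest value of 8.02, 46.1 and 73.6 CPM in Control, 0, 4.14 and 23.4 CPM in NaKtide, 0.493, 1.69 and 8.64 CPM in PNx, and 0.714, 3.20 and 4.16 CPM in PNx+NaKtide. All 12 nephrectomy libraries were below the median of the 12 sham libraries, but the NaKtide libraries reached 0, so that the ranges overlapped. Within Control, Pidd1 stood at 44.9 to 73.6 CPM in replicates 1 to 4 and at 8.02 and 11.4 CPM in replicates 5 and 6. The log2 fold change was -2.64 ± 0.58 (SE, n = 12 and 12), made up of -3.63 ± 0.83 in the GFP mice and -1.65 ± 0.82 in the NaKtide mice. By the exact permutation test within transductions the unadjusted p was 0.00729.

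Gprin1 encodes a membrane protein of growth cones that binds G proteins and promotes neurite outgrowth (ENSMUSG00000069227, chromosome 13, 54736671 to 54749874, minus strand). Its lowest, median and highest values were 15.4, 30.3 and 49.5 CPM in Control, 0.663, 9.17 and 34.3 CPM in NaKtide, 2.02, 3.93 and 16.5 CPM in PNx, and 0.768, 3.10 and 5.82 CPM in PNx+NaKtide. Again all 12 nephrectomy libraries were below the sham median, and the ranges of Control and PNx overlapped only between 15.4 and 16.5 CPM. The log2 fold change of -2.04 ± 0.47 was similar in size in both transductions (-2.23 and -1.86) and was -1.76 without PNx replicates 1, 2 and 3.

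Nrsn1 encodes neurensin, a vesicle membrane protein of neurons (chromosome 13, 25252040 to 25270502, minus strand). It ran from 8.03 to 26.8 CPM in Control and from 0 to 13.3 CPM in PNx, was at 0 in 4 of 6 NaKtide libraries, and did not exceed 0.832 CPM in PNx+NaKtide. Abcb5, an ATP-binding cassette transporter that marks some stem cells, had a median of 12 CPM in Control and 1.72 CPM in PNx, against 0.995 CPM in NaKtide and 0.277 CPM in PNx+NaKtide. The NaKtide sham medians of both genes were thus at or near 0, and the NaKtide differences (-4.46 and -3.80 on the log2 scale) rested on 2 to 3 sham libraries above 0 and on few counts. Il17d, a cytokine of the interleukin-17 family, had medians of 31.3 CPM in Control, 34.7 CPM in NaKtide, 13.5 CPM in PNx and 21.1 CPM in PNx+NaKtide. Of the 12 nephrectomy libraries 11 lay below the sham median of Il17d and 6 below its lowest sham library, for a log2 fold change of -0.83 ± 0.25 and an exact permutation p of 0.000344 before adjustment.

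On the higher side, Cog6 and Scpep1 had the smallest unadjusted p of the 12 genes of this end without PNx replicates 1, 2 and 3. Cog6, a subunit of the conserved oligomeric Golgi complex that tethers vesicles within the Golgi (ENSMUSG00000027742, chromosome 3, 52981875 to 53017237, minus strand), shares no exon bases with an opposite-strand gene. It had a lowest, median and highest value of 1, 3.60 and 4.68 CPM in Control, 0, 2.42 and 6.98 CPM in NaKtide, 4.71, 13.4 and 18.7 CPM in PNx, and 2.30, 5.27 and 6.69 CPM in PNx+NaKtide. PNx and Control met at 4.711 CPM in PNx replicate 4 and 4.685 CPM in Control replicate 6, which were 6 and 7 counts. They were thus not clearly separated, and PNx+NaKtide and NaKtide overlapped. The log2 fold change was 1.33 ± 0.35, made up of 1.99 in the GFP mice and 0.68 in the NaKtide mice, and was 1.11 without PNx replicates 1, 2 and 3 (unadjusted p = 0.00604).

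Scpep1, a serine carboxypeptidase of lysosomes whose exons overlap the antisense Scpep1os, had medians of 3.38 CPM in Control, 3.17 CPM in NaKtide, 15.2 CPM in PNx and 7.39 CPM in PNx+NaKtide. Of the 12 nephrectomy libraries 11 were above the sham median for each of these 2 genes. The log2 fold change of Scpep1 was 1.40 ± 0.36, and 1.12 without PNx replicates 1, 2 and 3.

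Among the remaining genes of the higher end stood 2 members of the ephrin system of contact signalling between cells, the ligand Efnb2 and the receptor Ephb3. Efnb2 had medians of 1.67 CPM in Control, 1.63 CPM in NaKtide, 11.7 CPM in PNx and 7.22 CPM in PNx+NaKtide, but PNx ran from 0 to 24.6 CPM and so spanned the sham range. Its log2 fold change was 2.04 ± 0.50, and 1.14 without PNx replicates 1, 2 and 3. Ephb3 had a log2 fold change of 2.27 ± 0.61, which came to 0.57 without them. Dnajc13, which acts in endosomal sorting (overlap with Gm37563), ran from 2.96 to 9.28 CPM in Control and from 4.71 to 60.6 CPM in PNx, with 7 nephrectomy libraries above every sham library and 5 below the sham median. A split of this kind, with some nephrectomy libraries far above and the others among the sham libraries, was also seen for Antxr1, the anthrax toxin receptor (2.37, overlap with n-R5s164), for the hypoxia-responsive Ankrd37 (2.95, overlap with Lrp2bp and Ufsp2) and for Rasa3, which switches off Ras and Rap (2.51). Their log2 fold changes were 0.85, 0.92 and 1.33 without PNx replicates 1, 2 and 3.

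Farsb (a phenylalanine transfer RNA synthetase subunit, 1.5, overlap with Sgpp2), Clec16a (a regulator of mitophagy, 1.38) and Hook3 (a microtubule adaptor, 1.82, overlap with 1700047A11Rik and Gm45411) completed this end together with Tmem267 (2.02, overlap with Gm48265 and 3110070M22Rik). Without PNx replicates 1, 2 and 3, Dnajc13, Efnb2, Farsb, Scpep1, Cog6 and Clec16a still had an unadjusted p under 0.05 and the other 6 genes of this end did not. With NaKtide replicate 6 and PNx replicate 6 left out as well, only Scpep1 (1.02) and Cog6 (0.96) did. PNx+NaKtide replicates 2, 3 and 4, which also stood high in the genes of the higher side, stayed in both fits.

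Pidd1, Gprin1 and Cog6, with no annotated opposite-strand overlap, had 11 or 12 of 12 nephrectomy libraries on the same side of the sham median. Nrsn1, Abcb5 and Il17d, among others, met the same description, and their windows are not shown. A lack of overlap does not make the counts those of a gene's own mRNA. The stretches just upstream of the starts of Pidd1, Gprin1 and Cog6 are shown as examples. Each is the 250 bases before the RefSeq start (GRCm38.p6, minus strand, written 5′ to 3′), with 4 short promoter motifs in capitals wherever they occur on either strand: the CCAAT box, the TATAAA box, the GC box (GGGCGG) and the E-box (CACGTG). They lie at chr7:141444026-141444275, chr13:54749875-54750124 and chr3:53017224-53017473.
Pidd1: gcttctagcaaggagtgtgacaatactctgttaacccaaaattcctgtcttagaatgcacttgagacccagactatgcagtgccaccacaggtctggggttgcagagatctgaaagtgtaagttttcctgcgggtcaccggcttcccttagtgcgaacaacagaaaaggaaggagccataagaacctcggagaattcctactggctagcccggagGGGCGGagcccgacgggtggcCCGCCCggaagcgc
Gprin1: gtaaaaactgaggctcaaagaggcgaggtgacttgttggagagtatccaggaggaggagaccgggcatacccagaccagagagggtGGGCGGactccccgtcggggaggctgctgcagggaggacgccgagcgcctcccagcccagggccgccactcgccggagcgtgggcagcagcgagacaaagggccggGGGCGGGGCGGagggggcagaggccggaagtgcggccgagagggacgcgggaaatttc
Cog6: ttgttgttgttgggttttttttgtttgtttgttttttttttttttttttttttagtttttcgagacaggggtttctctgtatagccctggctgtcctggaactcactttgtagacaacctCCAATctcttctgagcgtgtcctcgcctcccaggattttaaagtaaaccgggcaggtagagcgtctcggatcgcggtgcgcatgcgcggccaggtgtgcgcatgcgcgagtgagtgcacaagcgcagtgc
Pidd1 held 2 GGGCGG matches and Gprin1 3, of which 2 share bases, whereas Cog6 held 1 CCAAT match. Of 32851 RefSeq promoter windows of this length, 32.7% hold GGGCGG and 33.8% hold CCAAT, while TATAAA (12.4%) and CACGTG (6.02%) were not among the letters of these 3 windows. A match is a description of the letters.

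**Figure D2:**
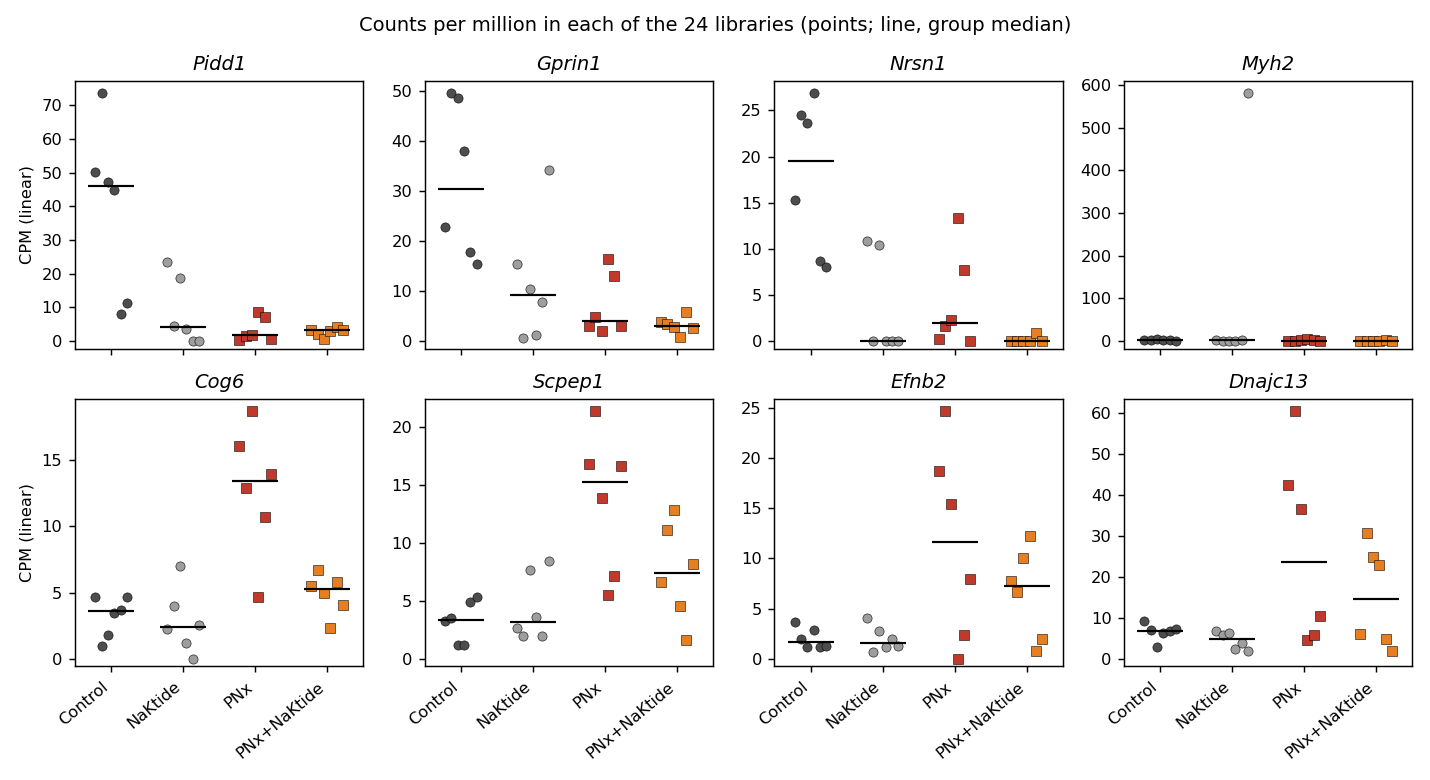
Each point is 1 library and each line a group median, in CPM on a linear axis, for 4 genes of the lower end (upper row) and 4 of the higher end (lower row). Pidd1 and Gprin1 are highest in Control, and Myh2 stands out in a single NaKtide library at 581 CPM. The lowest PNx value of Cog6 (4.711 CPM) lies next to its highest Control value (4.685 CPM), while Efnb2 and Dnajc13 spread widely within PNx.

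Of the 12 genes on the lower end, 4 were skeletal muscle genes, whose estimates were set largely by 1 sham library. Myh2, a fast myosin heavy chain (overlap with 9430073C21Rik), ran from 0 to 581 CPM in NaKtide, where replicate 6 alone gave the highest value, and from 1.34 to 4.14 CPM in Control, 0.246 to 4.71 CPM in PNx and 0 to 1.66 CPM in PNx+NaKtide. Its log2 fold change was -0.62 in the GFP mice and -6.85 in the NaKtide mice, and the main effect of -3.74 was -0.54 without NaKtide replicate 6 and PNx replicate 6. With and without the pair, Myh1 (overlap with Myhas) stood at -3.70 and -0.45, the sarcomere protein Tcap at -3.57 and -1.26, and muscle creatine kinase Ckm (overlap with A930016O22Rik) at -2.09 and -0.81. Rabep2, whose exons overlap those of the muscle calcium pump gene Atp2a1, reached 21606 CPM in NaKtide replicate 6 and had a median of 54.3 CPM in Control and 57.2 CPM in PNx, and its log2 fold change of -3.02 came to 0.03 without the pair. Zwilch, a kinetochore protein (overlap with Lctl), stood at -1.76 with and -0.85 without the pair. Of 14 muscle markers measured, 10 (71.4%) had an unadjusted p under 0.05, all lower after nephrectomy, against 3.98% of all genes tested. Their median log2 fold change was -2.27 over 24 libraries. Without the pair it was -0.39, and 4 of 14 stood at the threshold, against 5598 of 25551 genes.

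Teddm2 (overlap with the glutamine synthetase gene Glul and Mir8114) was the remaining gene of the lower end. It ran from 556 to 2777 CPM in Control and from 99.8 to 960 CPM in PNx, against 1480 to 2355 CPM in NaKtide and 1276 to 1930 CPM in PNx+NaKtide. Control replicates 5 and 6 stood at 661 and 556 CPM, and the other Control libraries at 1669 CPM or more. The log2 fold change of Teddm2 was -1.93 in the GFP mice and -0.20 in the NaKtide mice.

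No difference between both transductions passed its own test. The interaction called 0 of 26116 genes at a BH-adjusted p under 0.1, with 2421 (9.27%) at an unadjusted p under 0.05, and the smallest adjusted interaction p among the genes named here was 0.414. In PNx minus Control 20 genes were called and 6636 (25.4%) had an unadjusted p under 0.05, whereas in PNx+NaKtide minus NaKtide 0 were called and 1067 (4.09%) did. These contrasts share no library. At an unadjusted p under 0.05 in both stood 221 genes, 139 higher in both, 38 lower in both and 44 in opposite directions. They made up 3.33% of the GFP genes and 20.7% of the NaKtide genes at that threshold, the latter share below the 25.4% of all genes that stood there in the GFP mice, and over all genes tested 56.2% had the same sign. Among the 24 genes of both ends, Dnajc13, Efnb2, Antxr1, Ankrd37, Ephb3, Gprin1 and Nrsn1 had an unadjusted p under 0.05 in each transduction by itself. Tmem267 (1.35 and 2.69) and Ephb3 (2.12 and 2.41) had the larger estimate in the NaKtide mice, and the other 10 genes of the higher end in the GFP mice.

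**Figure D3:**
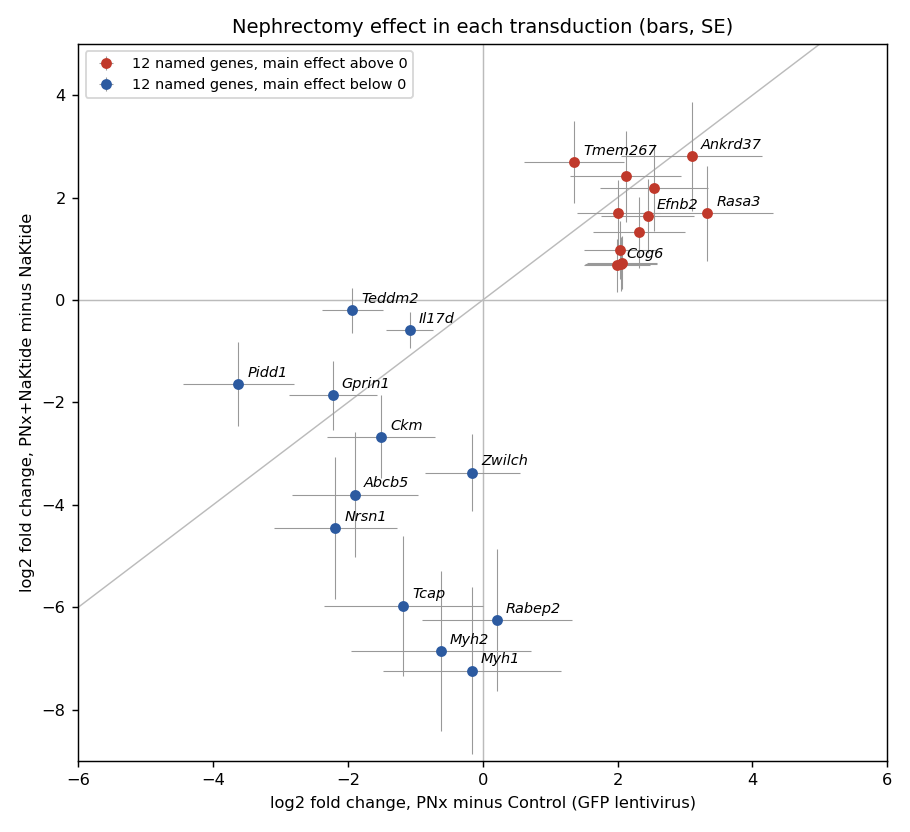
Each point is 1 of the 24 named genes, with its log2 fold change in PNx minus Control on the x axis, in PNx+NaKtide minus NaKtide on the y axis, standard errors as bars and a diagonal of equal effects. The genes of the higher end lie in the upper right, Pidd1 and Gprin1 lie below 0 on both axes, and Tcap, Myh1, Myh2 and Rabep2 lie between -1.18 and 0.21 on the x axis and between -7.24 and -5.97 on the y axis.

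The Na,K-ATPase signalling genes did not pass the test, and their estimates came mostly from the GFP mice. The median log2 fold change of the 8 members measured was 0.39 against 0.12 over all genes tested. Of these members 1 had an unadjusted p under 0.05 (12.5%, against 17.4% of all genes tested). That member was Nos3, the endothelial nitric oxide synthase (overlap with Atg9b and Gm15587), with medians of 13.5 CPM in Control, 16.5 CPM in NaKtide, 59.2 CPM in PNx and 34.1 CPM in PNx+NaKtide. The PNx libraries of Nos3 ran from 4.16 to 174 CPM and covered the whole sham range. Its log2 fold change was 1.39 ± 0.62 (unadjusted p = 0.0328) and 0.15 without PNx replicates 1, 2 and 3. The cell cycle inhibitor Cdkn1a had 0.95 ± 0.48 (overlap with AC167363.2), with 10 of 12 nephrectomy libraries above the sham median. The transcription factor Creb1 (0.38), protein kinase C alpha or Prkca (0.72, overlap with Apoh), the IκB kinase Chuk (0.40) and the lipopolysaccharide receptor Tlr4 (0.20) were smaller relative to their standard errors of 0.31, 0.80, 0.53 and 0.67. Without NaKtide replicate 6 and PNx replicate 6, Prkca stood at 2.32 and Tlr4 at -0.29, at means of only 0.895 and 0.585 CPM. Src itself was at -0.39 ± 0.32, with medians of 7.86 CPM in Control, 5.98 CPM in NaKtide, 2.92 CPM in PNx and 6.73 CPM in PNx+NaKtide.

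Of 18 Na,K-ATPase subunit and Src family genes, 4 were higher at an unadjusted p under 0.05 (22.2%, against 17.4% of all genes tested) and none lower, with a median log2 fold change of 0.37. Among them were the beta subunits Atp1b3 (0.93) and Atp1b1 (0.54, overlap with Nme7) and the regulatory subunit Fxyd2 (1.40). Atp1b1 ran from 53.7 to 99.6 CPM in Control and from 29.1 to 168 CPM in PNx. Without PNx replicates 1, 2 and 3 these 3 log2 fold changes were 0.48, 0.21 and 0.81 in the order given.

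Of the lists of fat tissue function, all but thermogenesis had fewer members at the threshold than the 17.4% of all genes tested. Adipokines (11 measured), fatty acid uptake and binding (14) and de novo lipogenesis (18) had 0 members at an unadjusted p under 0.05, with medians of 0.01, 0.28 and -0.14. Adipoq, the adipokine whose promoter drives the transgene, ran from 6.42 to 56.2 CPM in Control and from 5.50 to 345 CPM in PNx, for a main effect of 0.58 ± 0.55. In lipid droplet and lipolysis 1 of 17 stood lower, Plin5, which couples lipid droplets to mitochondria. Plin5 had medians of 8.27 CPM in Control, 6.61 CPM in NaKtide, 4.09 CPM in PNx and 4.02 CPM in PNx+NaKtide, all 12 nephrectomy libraries were below the sham median, and the log2 fold change was -0.87 ± 0.30 (unadjusted p = 0.00707, BH-adjusted p = 0.229) and -0.75 without PNx replicates 1, 2 and 3. Of 15 adipogenic transcription factors 1 stood higher, Ebf2 (1.53, overlap with Gm10860), and of 12 thermogenesis genes 4 (33.3%), among them the creatine synthesis enzyme Gatm (2.46), the coactivator Ppargc1b (1.34) and the deiodinase Dio2 (1.75, overlap with Gm26512). Ppargc1b and Dio2 came to -0.17 and -1.2 without PNx replicates 1, 2 and 3. Gatm came to 1.57 without them, at a mean of only 0.836 CPM and 55 counts in all. The thermogenesis list had a median of 0.30, and of -0.02 with 0 members at the threshold without those 3 libraries. The medians of lipid droplet and lipolysis (1.51 and -1.02), of adipokines (1.14 and -0.73) and of lipogenesis (0.92 and -0.82) had opposite signs in the GFP and the NaKtide mice. The adipocyte marker list had the same signs, with a median of 1.74 in the GFP mice, where PNx replicate 6 stood at 7862 CPM, and of -1.44 in the NaKtide mice, where NaKtide replicate 6 stood at 5977 CPM. Without those 2 libraries the main effect median of the adipocyte list was -0.66 and that of lipid droplet and lipolysis -0.02.

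Cilium assembly had the largest share of members at the threshold among the process lists of over 30 genes. Of its 34 members 8 stood higher and 1 lower at an unadjusted p under 0.05 (26.5% against 17.4% of all genes tested), with a median of 0.45. Rpgrip1l, a protein of the ciliary transition zone, had medians of 3.40 CPM in Control, 2.61 CPM in NaKtide, 17.4 CPM in PNx and 11.8 CPM in PNx+NaKtide and a log2 fold change of 1.84 ± 0.52. Bbs9 of the BBSome (1.47), the transition zone protein Cep290 (0.74, overlap with 4930430F08Rik) and the kinesin subunit Kif3b (1.21) followed. Without PNx replicates 1, 2 and 3 the list's median was 0.01 and these 4 genes stood at 0.73, 0.65, 0.24 and 0.21. The summed level of 16 testis germ cell markers was 78.0 to 167 CPM in Control, 110 to 656 CPM in NaKtide, 88.5 to 426 CPM in PNx and 72.4 to 169 CPM in PNx+NaKtide. Of these markers 6 stood higher at an unadjusted p under 0.05 (37.5%, against 13.5% of all genes tested) and none lower. The list's median went from 1.2 to -0.51 without PNx replicates 1, 2 and 3. The sperm markers, high in the 6 libraries named above, had a median of 0.82, and of -0.25 without PNx replicates 1, 2 and 3. Their levels were not compared with those of the cilium list library by library. The part of either marker list in the cilium values was not tested. Stra8 (2.40), Hormad1 (2.18) and Tdrd1 (1.23), which act in meiosis and in germ line RNA silencing, were among the 6.

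Ubiquitin ligation followed with 7 of 40 higher and 1 lower (20%, near the 17.4% of all genes tested, median 0.36), among them the ligase Herc1 (1.04, overlap with Gm28379 and Fbxl22), the inhibitor of apoptosis Birc6 (1.07, overlap with Gm26749), the cullin Cul3 (0.84) and the conjugating enzyme Ube2d3 (0.81, overlap with 4930539J05Rik). Herc1 was alike in both transductions (1.03 and 1.04) and stood at 0.90 without PNx replicates 1, 2 and 3. Of 31 proteasome genes 3 stood higher and none lower (9.68%, below the share of all genes, median 0.23), Psmd6 (0.74), Psmd13 (0.84, overlap with Sirt3) and Psma3 (0.75). Of 32 cell cycle genes 4 stood higher and none lower (12.5%, also below it, median 0.27), the replication helicase subunit Mcm6 (1.51), the topoisomerase Top2a (1.59), Cdk2 (0.92, overlap with Pmel) and the sliding clamp Pcna (0.77). Mcm6 was above the sham median in all 12 nephrectomy libraries and stood at 1.64 without PNx replicates 1, 2 and 3, but at low levels, with medians of 0.604 CPM in Control and 2.05 CPM in PNx.

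Each of the inflammatory, stress and metabolic lists that follow had a smaller share of its members at the threshold than the 17.4% of all genes tested, so that their members are given as single values and not as a result about the lists. In NF-kB and Toll-like receptor signalling 2 of 19 stood lower, the adaptor Myd88 (-0.91 ± 0.29, overlap with Acaa1a) and the IκB kinase subunit Ikbkg (-0.996 ± 0.34, overlap with G6pdx), and 1 higher, the inhibitor Nfkbib (0.67 ± 0.32, overlap with Ccer2 and Sirt2). In the GFP mice Myd88, Ikbkg and Nfkbib stood at -1.527, -1.935 and 1.174, and in the NaKtide mice at -0.29, -0.06 and 0.18. Among 15 cytokines and chemokines 2 stood higher, Il1b (1.17, overlap with Il1bos) and Il1a (0.72, overlap with Gm14023), which were 0.05 and 0.08 without PNx replicates 1, 2 and 3. Of 26 NRF2 and antioxidant genes, Srxn1, which repairs oxidised peroxiredoxins, stood lower (-0.91, made up of -1.95 in the GFP mice and 0.14 in the NaKtide mice) and Keap1, the repressor of NRF2, higher (0.51, overlap with Gm16754). Of 12 oxidant sources Nos1, the neuronal nitric oxide synthase, stood higher (2.40, overlap with Gm26995). Among 20 heat shock genes Hsph1 (1.2) and Hsp90aa1 (0.91) stood higher and Cryab (-0.87, overlap with Hspb2, 292 CPM in NaKtide replicate 6 and -0.42 without the pair numbered 6) lower, among 19 immediate early genes Jund stood lower (-0.65, overlap with Gm11175), among 33 nuclear oxidative phosphorylation genes Ndufa9 stood higher (1.24, overlap with 1700018A23Rik), and among 15 genes of renin, angiotensin and corticosteroid action the converting enzyme Ace (0.84, overlap with Gm11651) with 1 other. In collagen and matrix Lox, a collagen cross-linking enzyme, stood lower (-1.93, overlap with AC161119.1) with 1.31 in the GFP mice and -5.16 in the NaKtide mice. Lox had only 49 counts over the 24 libraries, 11 of them in NaKtide replicate 6 and 0 in PNx+NaKtide, so that these values rest on few reads. Cytosolic ribosomal proteins (39 measured), MHC class I presentation (19) and the mitochondrial genome (13) had 0 members at the threshold, with medians of -0.11, -0.16 and -0.07. The lists of insulin signalling (1 of 21), p53 targets (2 of 17), the unfolded protein response (2 of 16), hypoxia and angiogenesis (2 of 19) and calcium, phosphate and vitamin D handling (1 of 12) had members on the higher side and none on the lower. Of the genes named from these process lists, Myd88 (-0.63), Ikbkg (-0.63), Psma3 (0.91), Herc1, Mcm6 and Plin5 kept an unadjusted p under 0.05 without PNx replicates 1, 2 and 3. Psma3 (0.53) did not keep it without NaKtide replicate 6 and PNx replicate 6. Without all 5 libraries only Herc1 (0.84) and Mcm6 (1.35) of them kept it.

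**Figure D4:**
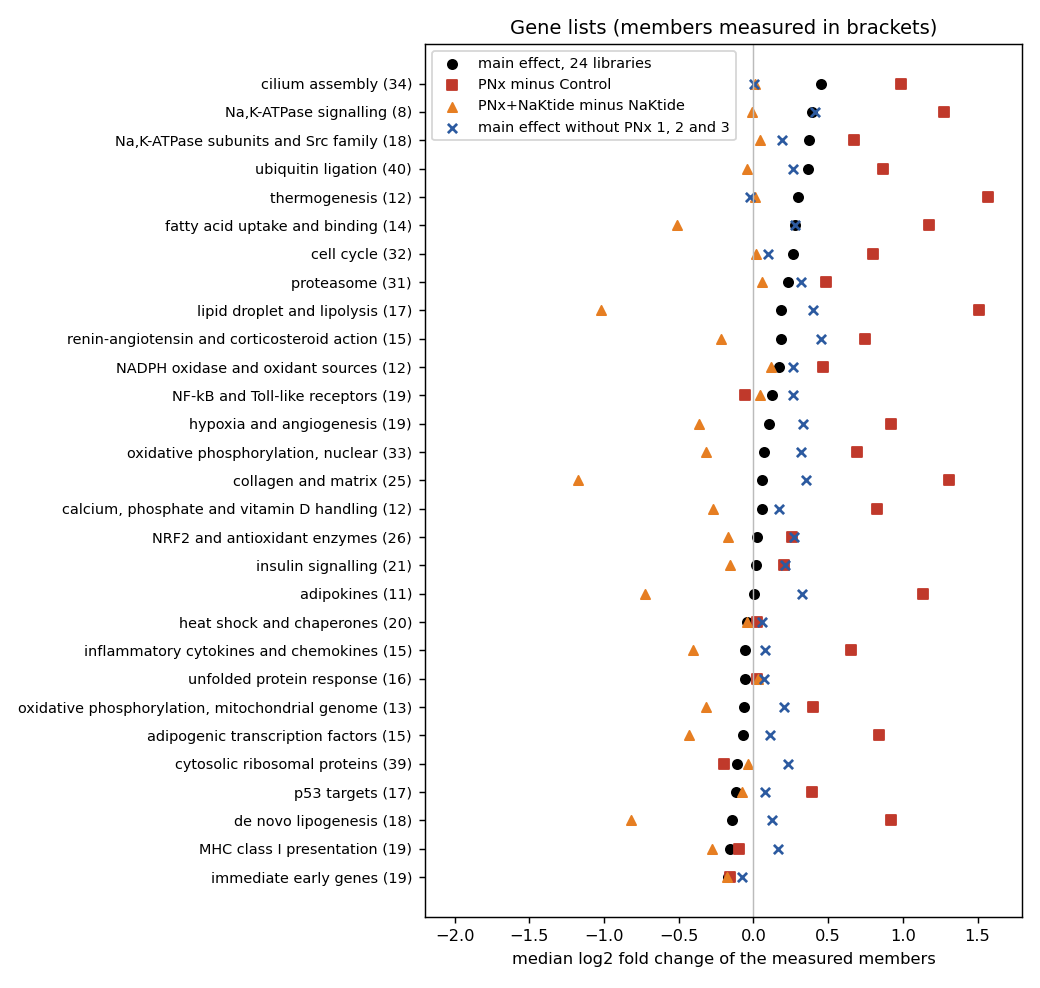
For each of the 29 process lists the points give the median log2 fold change of its measured members for the main effect, for each transduction and for the main effect without PNx 1, 2 and 3. The main effect medians run from -0.17 to 0.45, and most medians of PNx minus Control lie to the right of those of PNx+NaKtide minus NaKtide.

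Markers of other cells and of neighbouring tissues were compared in the same way. The 15 epididymis genes summed to 981 to 2771 CPM in Control, 33.6 to 2856 CPM in NaKtide, 12.6 to 2654 CPM in PNx and 1277 to 2848 CPM in PNx+NaKtide, and 0 of 15 stood at an unadjusted p under 0.05. Adipocyte genes (0 of 20), macrophage genes (0 of 16), smooth muscle genes (0 of 10), erythrocyte genes (0 of 7), sperm genes (0 of 15) and liver genes (0 of 9) did not either. The macrophage list summed to 174.2, 285.5 and 190.8 CPM in PNx replicates 1, 2 and 3, against 345.8 CPM or more elsewhere. The smooth muscle list summed to 120.2, 142.1 and 161 CPM there, against 250 CPM or more elsewhere. It was highest in PNx+NaKtide replicates 2, 3 and 4, at 676.6, 830.1 and 835.1 CPM. The part of these lists in the genes above was not tested. On the higher side stood 3 of 10 T and B cell genes, 1 of 12 endothelial genes, 2 of 12 fibroblast progenitor genes, 2 of 9 mesothelial genes and 1 of 9 adrenal genes, against 13.5% of all genes tested. The T and B cell list had a median of 0.07, and of -0.37 with 0 members at the threshold without PNx replicates 1, 2 and 3. Its summed group medians were 56.5 CPM in Control, 102.5 CPM in NaKtide, 78.95 CPM in PNx and 66.2 CPM in PNx+NaKtide. The mesothelial list had 4 of 9 members above 0, a median of -0.07 and summed group medians of 161 CPM in Control and 64.3 CPM in PNx. Of 10 kidney genes 1 stood higher and 1 lower, the latter being the endocytic receptor Lrp2 (-1.48, and -1.07 without PNx replicates 1, 2 and 3). The kidney list summed to 797.4, 1583 and 1012 CPM in those 3 libraries, against 2046 CPM or more elsewhere.

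**Figure D5:**
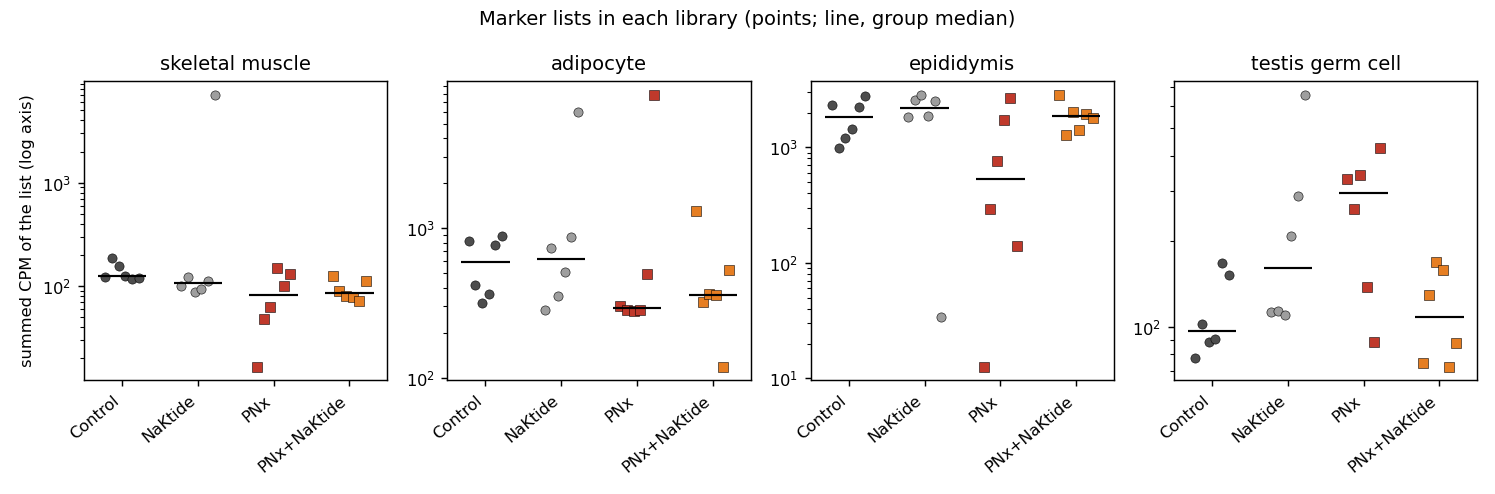
Each point is the summed CPM of a marker list in 1 library, on a log axis, with a line at the group median. A single NaKtide library stands at 7101 CPM for skeletal muscle, 1 PNx and 1 NaKtide library stand at 7862 and 5977 CPM for adipocytes, and PNx ranges from 12.6 to 2654 CPM for the epididymis list.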

How the data were processed

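Visceral adipose tissue RNA of 24 mice was made into stranded, polyA-selected libraries and sequenced in pairs of 50 bases. Per the labels, the authors trimmed reads with Trimmomatic 0.38 and aligned them to GRCm38 with HISAT2 2.1.0, and they counted reads per gene. For the strand setting and the annotation release, the sources used here give no entry. The deposited table of raw counts was used for the tests, and the table of FPKM values that the authors made was used as an alternative after log2(FPKM + 1) or log2(FPKM + 0.1). Another deposited table, of normalised values, was not used.

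Genes with more than 10 counts over the 24 libraries were fitted with edgeR 4.0.16 (R 4.3.3, TMM scaling, robust quasi-likelihood, 4 group means), and the nephrectomy effect was the mean of both differences between surgeries. p-values were adjusted by Benjamini-Hochberg over 26116 genes with a threshold of 0.1. The scripts were tested on simulated data. Levels are CPM of the deposited counts over library totals scaled by the TMM factors. The exact permutation test reassigned surgery within each transduction (853776 assignments, two-sided, smallest p 2.34e-06). DESeq2 1.42.0 and limma 3.58.1 were alternatives. Nothing says that libraries come from separate cages or days, and p-values measure the spread between libraries.

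Symbols, coordinates and opposite-strand exon overlap came from GENCODE M21 (54165 of 54232 identifiers matched). Named genes were, per direction, 12 protein-coding genes with at least 5 CPM on average in order of unadjusted p, as none was called, with up to 4 members of each list at an unadjusted p under 0.05, of which those of marker lists and of the smallest lists are given as counts. Groups, lists and members were chosen with earlier results of these data known. Some genes are not reported here.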

Additional observations from a re-analysis of the deposited data

Results flagged for a closer look

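In groups of 6 libraries, a library was singled out when its gap to the nearest other exceeded Dixon's 95% critical share of the group's range (on the log2 scale for genes and lists), which chance gives in about 1 in 20 groups. Of 340 groups of values examined, 33 were singled out, and NaKtide replicate 6 accounts for the largest number of them. In that library Tcap stood at 140.9 CPM, Ckm at 447.4 CPM, Myh2 at 580.6 CPM, Myh1 at 855.4 CPM, Rabep2 at 21606 CPM, Zwilch at 117 CPM, Cryab at 292.2 CPM, Ikbkg at 301.3 CPM, Adipoq at 165.5 CPM and Prkca at 3.879 CPM, each above the other NaKtide libraries. Its summed skeletal muscle list stood at 7101 CPM and its adipocyte list at 5977 CPM, its epididymis list at only 33.62 CPM, and its share of counts in genes with opposite-strand overlap at 86.51%. PNx replicate 6 had the summed adipocyte list at 7862 CPM, far above the other PNx libraries, and Creb1 at 4.151 CPM, below them.

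Further libraries were singled out at a single gene. In Control these were Dnajc13 at 2.959 CPM in replicate 3, Nfkbib at 5.251 CPM in replicate 4 and Ckm at 8.031 CPM in replicate 6 as lowest values, and Farsb at 8.019 CPM in replicate 5, Rpgrip1l at 8.005 CPM in replicate 2 and Stra8 at 0.6692 CPM in replicate 6 as highest. In NaKtide, Gatm at 1.396 CPM in replicate 3 and Hormad1 at 0.4505 CPM in replicate 1 were highest, while Psma3 in replicate 4 and Chuk and Birc6 in replicate 5 were at 0 CPM. In PNx+NaKtide, Creb1 at 2.214 CPM and Psma3 at 8.303 CPM in replicate 1, Hormad1 at 3.572 CPM in replicate 3, and Nrsn1 at 0.8318 CPM, Cdkn1a at 0 CPM and Ace at 47.41 CPM in replicate 5 were the extremes.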

How the results depend on the processing

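The count of called genes was 0 with other scalings (DESeq2 size factors, library size), other filters, an additive model, surgery alone, log2(FPKM + 1), log2(FPKM + 0.1), an adjusted p under 0.05, genes free of opposite-strand overlap, and without each library in turn (0 to 0), but 3505 by DESeq2 (smallest adjusted p 0.0206; 6905 adjusted p were NA) and 14356 by voom. The number of genes at an unadjusted p under 0.05 ran from 3057 (without PNx replicate 1) to 6890 (without PNx replicate 4) with single libraries left out. It was 14075 by voom, 2913 by the exact permutation, 2743 with filterByExpr (12050 genes tested), 920 without PNx replicates 1, 2 and 3, and 673 without these and both libraries numbered 6. The permutation count and the last set were chosen after seeing the data. The share of higher genes among those at the threshold was 77.2%, but 90.7% with size factors, 88.9% with library size, 89.3% with DESeq2, 49.5% with voom, 51.0% with the permutation, 58.3% with the replicate block, 66.9% without PNx replicate 6, 40.7% without PNx replicates 1, 2 and 3, and 25.1% without the 5 libraries. With size factors the median over all genes was a log2 fold change of 0.33 in place of 0.12.

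Deviations of same-numbered libraries of different groups had correlations of -0.592 to 0.712, with 19 of 36 over 0.1 and 17 under, so not every pair deviated together. The numbers were not taken as pairs. With the replicate block 0 genes were called and 3807 stood at the threshold.

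Of 74 named genes, 51 had the same sign under each of the 40 alternatives that gave them a value. Without PNx replicates 1, 2 and 3, the log2 fold change turned to -0.17 for Ppargc1b, -1.2 for Dio2, -0.09 for Nfkbib and Pcna, -0.14 for Ace and -0.23 for Tdrd1, and the difference in total counts (to -10021) and in mitochondrial share (to 0.281) turned sign as well. Without both libraries numbered 6, Rabep2 was at 0.03 and Tlr4 at -0.29. Tlr4 was also at -0.57 by voom, -0.03 by the permutation and -0.28 without PNx replicate 6 (up to 0.35 with single libraries left out). Without all 5 libraries, 21 genes turned sign: Nos3 (-0.64), Chuk (-0.58), Atp1b3 (-0.16), Fxyd2 (-1.33), Gatm (-0.05), Ppargc1b (-0.59), Dio2 (-0.97), Nos1 (-1.18), Nfkbib (-0.19), Ace (-0.21), Ndufa9 (-0.08), Psmd13 (-0.22), Ube2d3 (-0.04), Pcna (-0.19), Kif3b (-0.49), Hsph1 (-0.25), Hsp90aa1 (-0.46), Cryab (0.06), Tdrd1 (-0.01), Src (0.07), Adipoq (-0.69). The cause was not tested. At 679250 to 2979505 counts a library, genes under about 1 CPM rest on few reads.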
